A study of Mus musculus with 8 samples.

Results

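The caveolae genes described here were Cav1, Cav2, Cavin1, Cavin2, Cavin3, Ehd2 and Pacsin2, 7 of the 53700 genes in the count table. They were selected on the hypoxia effect of Cav2, chosen because its level falls with hypoxia in WT cells much more than in FIH-KO cells, and the others build the same structure. The hypoxia effect in each genotype and the difference between the 2 effects are therefore given as a description, without a test. All 7 passed the filter on low counts, which kept 13933 genes.

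Caveolae are small flask-shaped pits of the plasma membrane, rich in cholesterol. Caveolins form the membrane-embedded part, cavins assemble a coat on its cytoplasmic side, and EHD2 and PACSIN2 act at the neck and on membrane curvature. Caveolae are abundant in endothelial cells, adipocytes, muscle and alveolar type I cells of the lung, and they flatten when the membrane is stretched.

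Gene expression was measured by RNA-Seq in LLC cells, a mouse line from a Lewis lung carcinoma, that were WT or lacked FIH (FIH-KO). FIH, encoded by Hif1an, is an oxygen-dependent asparagine hydroxylase that restrains the hypoxia-inducible factors (HIFs). The 4 groups were WT cells at 21% O2 (normoxia), WT cells at 1% O2 (hypoxia), FIH-KO cells at 21% O2 and FIH-KO cells at 1% O2, each with 2 libraries, after 16 hours of culture. The study's methods give 1 medium for LLC cells, with serum and penicillin-streptomycin. Beyond the oxygen level they name no treatment of the RNA-Seq cultures. The FIH-KO cells came from a Cas9 ribonucleoprotein with a guide against Hif1an, followed by single-cell dilution. The study's methods name a nontargeting guide as the negative control of the editing, and whether the WT libraries came from cells given that guide is not given in the sources used here. How many clones the libraries represent is not given in the sources used here, so an effect of FIH loss and a trait of the selected clone cannot be told apart. Library totals ran from 14519731 to 18177016 counts. Nothing in the labels says that the 2 libraries of a group came from separate cultures, so p-values measure only the spread between libraries. Levels are given as CPM, the counts scaled to TMM-normalized library sizes, and log2 fold changes come from edgeR with their standard errors (SE).

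Hif1an was examined first as a check of the genotype labels. It had 84.6 and 82.3 CPM in the WT libraries in normoxia, 90.2 and 84.0 in WT hypoxia, 34.8 and 37.7 in FIH-KO normoxia and 45.5 and 51.0 in FIH-KO hypoxia. Every FIH-KO library lay below every WT library. Its transcript was lower in FIH-KO cells by a log2 fold change of -1.03 (SE 0.08, edgeR adjusted p = 2.09e-06, averaged over oxygen) and remained detectable in all of them. The oxygen labels were checked on 15 HIF target genes: 14 passed the test as higher in hypoxia in WT cells and 13 in FIH-KO cells, with none lower, against 16.9% and 8.84% of all tested genes. The endoplasmic reticulum oxidase Ero1a, for example, rose with a log2 fold change of 3.99 (SE 0.28, edgeR adjusted p = 4.01e-06) in WT and 4.66 (SE 0.29, edgeR adjusted p = 1.56e-06) in FIH-KO cells.

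The carcinoma label was compared with cell type markers. Of 6 epithelial markers Epcam and Cldn4 had 0 counts in every library, while the keratin Krt8 was the most abundant with a mean of 205 CPM. All 4 mesenchymal markers were tested, led by the intermediate filament gene Vim with a mean of 4354 CPM. Of 6 alveolar type II markers none passed the filter, and Sftpc, Sftpa1 and Nkx2-1 had 0 counts throughout. Of the cell types rich in caveolae, alveolar type I cells had 5 markers, led by Rtkn2, with a sum between 38.1 and 81.4 CPM. Most of that sum was Rtkn2, followed by Hopx. Among the rest of these markers, Ager had 0.846 to 2.19 CPM, Pdpn at most 5 counts and Aqp5 at most 6. Markers of the other cell types rich in caveolae were at or near 0. The 7 endothelial markers summed to between 0.415 and 2.69 CPM per library, with Emcn and Cldn5 at 0 counts and Cdh5 the most abundant. The 4 adipocyte markers summed to at most 0.168 CPM, with Plin1 and Lep at 0 counts. The 6 muscle markers summed to between 1.18 and 4.43 CPM, led by Des, with Cav3 and Myog at 0 counts.

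Averaged over the 2 oxygen conditions, 5 of the 7 caveolae genes were higher in FIH-KO cells: Cav1, Cavin1, Cavin2, Cavin3 and Ehd2. This average is another contrast than those that chose the genes, computed from the same libraries. Cav2 and Pacsin2 did not pass the test, and none of the 7 was lower. Over all 13933 genes 22.0% were called higher and 21.2% lower in this comparison, 43.2% in all, at an edgeR adjusted p under 0.05. The median log2 fold change was 0.37 for the 7 genes and -0.02 for all tested genes. A larger share of cells expressing a gene and more of its RNA per cell cannot be told apart in these bulk cultures.

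Some markers of cell type also differed between the lines. The 4 mesenchymal markers summed to 4395 and 5151 CPM in WT normoxia, 5990 and 5541 in WT hypoxia, 8249 and 9043 in FIH-KO normoxia and 11025 and 9179 in FIH-KO hypoxia. Every FIH-KO library was above every WT library. Averaged over oxygen 3 of the 4 were called higher in FIH-KO cells: Fn1 (log2 fold change 1.39, edgeR adjusted p = 3.00e-06), Vim (0.55, edgeR adjusted p = 0.000922) and S100a4 (0.35, edgeR adjusted p = 0.0200). The S100a4 call was lost without WT normoxia replicate 1, WT hypoxia replicate 2, FIH-KO normoxia replicate 1 or FIH-KO hypoxia replicate 2 (edgeR adjusted p from 0.0641 to 0.0852), with a value of 0.23 without the last of these. The 6 epithelial markers summed to 326 and 352, 283 and 226, 538 and 436, and 447 and 334 CPM in the same order, so at each oxygen level both FIH-KO libraries exceeded both WT libraries. Of the 3 tested, Krt8 was called higher (1.01, edgeR adjusted p = 2.46e-05) and the others were not called.

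The 5 alveolar type I markers summed to 64.1 and 67.1, 57.9 and 81.4, 47.4 and 42.5, and 38.1 and 50.1 CPM, again in the order WT normoxia, WT hypoxia, FIH-KO normoxia and FIH-KO hypoxia, with every FIH-KO library below every WT library. Most of this sum was Rtkn2, which was called lower (-0.79, edgeR adjusted p = 0.00122). Hopx, the next in abundance, lay the other way, with both FIH-KO libraries above both WT libraries at each oxygen level (8.93 and 10.02 against 7.26 and 8.06 CPM in normoxia), and was not called (0.25, edgeR adjusted p = 0.163). The 6 muscle markers summed to 1.54 and 1.18, 1.57 and 1.57, 2.86 and 2.63, and 4.43 and 2.34 CPM, with every FIH-KO library above every WT library. Of the 2 tested, Des, with 3 to 10 counts in WT and 15 to 46 in FIH-KO libraries, was called higher (2.12, edgeR adjusted p = 0.00157) and Cavin4 was not called. The 6 alveolar type II markers summed to at most 0.728 CPM and rested on few counts: Lamp3 had 2 to 4 per library, and Napsa 0 or 1 in WT and 2 to 11 in FIH-KO libraries. The 7 endothelial markers summed to 0.578 and 0.415, 2.69 and 2.05, 0.536 and 0.504, and 0.812 and 0.456 CPM, lower in both FIH-KO libraries than in both WT libraries in hypoxia only. That difference was mostly Cdh5, with 35 and 18 counts in WT hypoxia and 5 and 3 in FIH-KO hypoxia. On these few counts Cdh5 was called lower in hypoxia (-2.62, SE 0.57, edgeR adjusted p = 0.00507). Its call as lower averaged over oxygen (-2.04, edgeR adjusted p = 0.0496) was not made by DESeq2 (adjusted p = 0.115) and was lost without a filter beyond 1 read (edgeR adjusted p = 0.0544) and without any 1 library but FIH-KO normoxia replicate 2 (edgeR adjusted p from 0.0517 to 0.261), whose removal gave -3.16. The 6 fibroblast markers, led by Pdgfra and with Thy1 at 0 counts, summed to 28.9 and 28.97, 15.5 and 24.4, 21.3 and 24.5, and 9.12 and 17.6 CPM. This sum, mostly Pdgfra, was lower in both FIH-KO libraries in normoxia and overlapped in hypoxia. Averaged over oxygen Pdgfra was called lower (-0.74, edgeR adjusted p = 0.00719), while Col1a1 (1.15, edgeR adjusted p = 0.0354) and Dcn (1.20, edgeR adjusted p = 0.0378), with 3 to 26 and 9 to 83 counts, were called higher. DESeq2 did not call Col1a1 (adjusted p = 0.127), and its edgeR call was lost without any 1 library but WT hypoxia replicate 2 and FIH-KO hypoxia replicate 1 (edgeR adjusted p from 0.0527 to 0.152). The Dcn call was lost without WT normoxia replicate 1, WT hypoxia replicate 1, FIH-KO normoxia replicate 2 or FIH-KO hypoxia replicate 2 (edgeR adjusted p from 0.112 to 0.151), and its value was 1.84 without WT normoxia replicate 2. The 7 immune markers, led by Cd68 and with Cd3e and Adgre1 at 0 counts, summed to 2.70 and 3.32, 8.18 and 7.92, 5.24 and 4.31, and 9.18 and 3.84 CPM. They were higher in both FIH-KO libraries in normoxia and overlapped in hypoxia, and neither of the 2 tested was called. Genes of cell type lists are named for their calls, after their values were seen. The part of such differences between the lines in the levels of the caveolae genes was not tested.

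**Figure D1:**
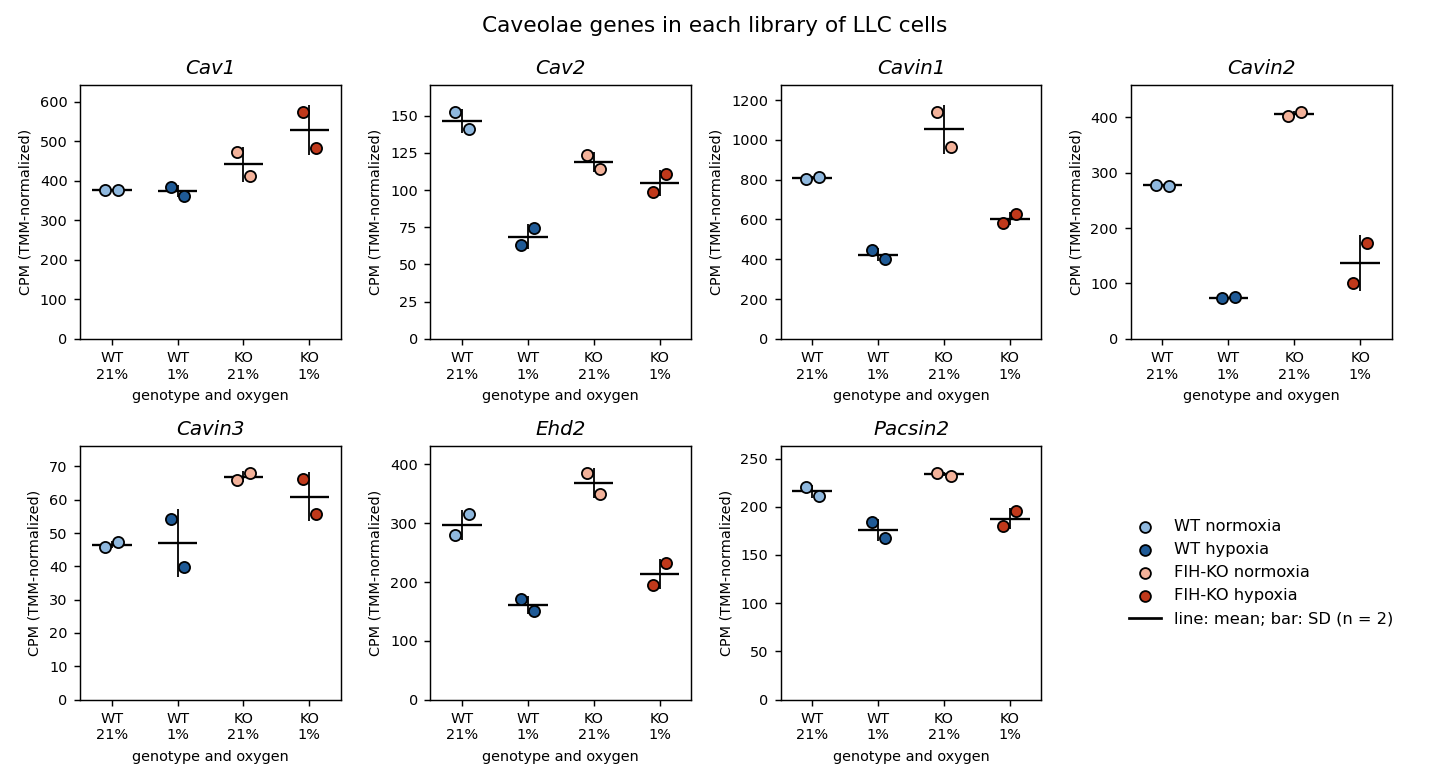
Level of each caveolae gene in each library as TMM-normalized CPM (vertical axis, from 0) for the 4 groups (horizontal axis, genotype and oxygen). Points are libraries, lines are means and bars are SD (n = 2); for Cavin2 the WT hypoxia libraries sit at 73.0 and 75.6 CPM and the FIH-KO hypoxia libraries apart from each other at 101 and 172 CPM.

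Cav1 encodes caveolin-1, the main structural protein of caveolae outside muscle. It lies on chromosome 6 (GRCm39, 17306140 to 17341451, plus strand, identifier ENSMUSG00000007655.17). Its level was 375.3 and 375.4 CPM in WT normoxia, 384 and 362 in WT hypoxia, 473 and 411 in FIH-KO normoxia and 574 and 483 in FIH-KO hypoxia. Every FIH-KO library was above every WT library, and the 2 WT groups overlapped. Averaged over oxygen the log2 fold change was 0.37 (SE 0.09, 1.29-fold, edgeR adjusted p = 0.00436). It passed in hypoxia (0.50, SE 0.12, edgeR adjusted p = 0.00949) and not in normoxia (0.24, SE 0.12, edgeR adjusted p = 0.172), where the value was 0.13 without FIH-KO normoxia replicate 1. The call in hypoxia was lost without WT hypoxia replicate 2 (edgeR adjusted p = 0.0772). As a description, the hypoxia effect was -0.01 (SE 0.12) in WT and 0.26 (SE 0.12) in FIH-KO cells, and the latter was 0.16 without FIH-KO normoxia replicate 2 and 0.13 without FIH-KO hypoxia replicate 1. The WT value lay near 0 and its sign followed which library was kept: it was -0.04 without WT normoxia replicate 2, -0.05 without WT hypoxia replicate 1 and 0.03 without WT hypoxia replicate 2.

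Cav2 encodes caveolin-2, which assembles with caveolin-1 and depends on it to reach the cell surface. It lies just upstream on the same strand (chromosome 6, GRCm39, 17281026 to 17289877, identifier ENSMUSG00000000058.7), with 16262 bases between the 2 genes. It had 152 and 141 CPM in WT normoxia, 62.9 and 74.5 in WT hypoxia, 123 and 114 in FIH-KO normoxia and 98.5 and 111 in FIH-KO hypoxia. The FIH-KO libraries were all below the WT libraries in normoxia and all above them in hypoxia. This is the pattern on which Cav2 was chosen: its hypoxia effect was -1.09 (SE 0.12) in WT and -0.18 (SE 0.12) in FIH-KO cells, a difference of 0.91 (SE 0.17), not tested here. The FIH-KO effect was -0.10 without FIH-KO hypoxia replicate 1. Without WT hypoxia replicate 2 the WT effect was -1.22 and the difference 1.04. Over all alternatives run the difference lay between 0.79 and 1.04. The genotype values within each oxygen condition were -0.30 (SE 0.12) in normoxia and 0.61 (SE 0.12) in hypoxia. They share the libraries of the hypoxia effects and are likewise a description. The genotype value in hypoxia lay between 0.49 and 0.73 over the alternatives. Averaged over oxygen Cav2 did not pass (log2 fold change 0.15, SE 0.08, edgeR adjusted p = 0.169), and the value was 0.09 without WT hypoxia replicate 1.

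The levels of the caveolins were compared per kilobase of exon within each library. The ratio of Cav1 to Cav2 in CPM per kilobase was 2.12 and 2.29 in WT normoxia, 5.25 and 4.18 in WT hypoxia, 3.30 and 3.10 in FIH-KO normoxia and 5.01 and 3.75 in FIH-KO hypoxia. The hypoxia libraries lay above the normoxia libraries of their genotype, and the ratios of the 2 hypoxia groups overlapped.

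Cavin1 encodes the coat protein without which caveolae do not form. It lies on chromosome 11 (GRCm39, 100847559 to 100861713, minus strand, identifier ENSMUSG00000004044.10). It had 803 and 815 CPM in WT normoxia, 447 and 399.7 in WT hypoxia, 1139.6 and 966 in FIH-KO normoxia and 582 and 626 in FIH-KO hypoxia. At each oxygen level both FIH-KO libraries exceeded both WT libraries. Averaged over oxygen the log2 fold change was 0.45 (SE 0.09, 1.36-fold, edgeR adjusted p = 0.00132). It passed in normoxia (0.38, SE 0.12, edgeR adjusted p = 0.0353) and in hypoxia (0.51, SE 0.12, edgeR adjusted p = 0.00874). The normoxia call was lost without WT normoxia replicate 1, WT normoxia replicate 2 or FIH-KO normoxia replicate 1 (edgeR adjusted p = 0.191, 0.177 and 0.243), and the hypoxia call without WT hypoxia replicate 2 (edgeR adjusted p = 0.0853). The hypoxia effect was -0.93 (SE 0.12) in WT and -0.80 (SE 0.12) in FIH-KO cells, a difference of 0.13 (SE 0.17), again without a test. Without single libraries this difference ran from 0.02 (FIH-KO normoxia replicate 2 left out) to 0.26 (FIH-KO normoxia replicate 1 left out), and it also moved by more than 1.5 times without either WT hypoxia library (0.22 and 0.06) or without FIH-KO hypoxia replicate 2 (0.08).

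Cavin2 encodes a cavin that binds phosphatidylserine and helps to shape the coat. It lies on chromosome 1 (GRCm39, 51328266 to 51345710, plus strand, identifier ENSMUSG00000045954.8). It had 278 and 276 CPM in WT normoxia, 73.0 and 75.6 in WT hypoxia, 402 and 409 in FIH-KO normoxia and 101 and 172 in FIH-KO hypoxia. The groups did not overlap, and the 2 FIH-KO hypoxia libraries stood further apart than the libraries of the other groups. Averaged over oxygen it was 1.64-fold higher in FIH-KO cells (log2 fold change 0.71, SE 0.13, edgeR adjusted p = 0.00092). It passed in normoxia (0.55, SE 0.18, edgeR adjusted p = 0.0408) and in hypoxia (0.88, SE 0.19, edgeR adjusted p = 0.00475). The hypoxia value was 1.21 without FIH-KO hypoxia replicate 1 and 0.44 without FIH-KO hypoxia replicate 2. The normoxia call was lost when any 1 of the other 6 libraries was left out, with edgeR adjusted p from 0.0664 to 0.183. These losses include libraries grown in hypoxia. Its hypoxia effect, as a description, was -1.90 (SE 0.19) in WT and -1.57 (SE 0.19) in FIH-KO cells. The difference between those, 0.33 (SE 0.26), was 0.66 without FIH-KO hypoxia replicate 1 and -0.11 without FIH-KO hypoxia replicate 2.

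Cavin3 encodes a smaller coat component that binds protein kinase C delta. It lies on chromosome 7 (GRCm39, 105128391 to 105131507, minus strand, identifier ENSMUSG00000037060.4). It had 45.8 and 47.2 CPM in WT normoxia, 54.4 and 39.9 in WT hypoxia, 65.8 and 68.1 in FIH-KO normoxia and 66.1 and 55.8 in FIH-KO hypoxia. Every FIH-KO library was above every WT library, and oxygen groups overlapped within each genotype. Averaged over oxygen the log2 fold change was 0.45 (SE 0.11, 1.36-fold, edgeR adjusted p = 0.00466). It passed in normoxia (0.52, SE 0.15, edgeR adjusted p = 0.0205) but not in hypoxia (0.37, SE 0.15, edgeR adjusted p = 0.0859). The normoxia call was lost without any 1 of the 4 normoxia libraries (edgeR adjusted p from 0.0735 to 0.131). In hypoxia Cavin3 was called without WT hypoxia replicate 1 (0.61, edgeR adjusted p = 0.0277) and without a filter on low counts (edgeR adjusted p = 0.0410). The value was 0.16 (edgeR adjusted p = 0.488) without WT hypoxia replicate 2 and 0.24 (edgeR adjusted p = 0.320) without FIH-KO hypoxia replicate 1. The sign of the WT hypoxia effect followed which WT hypoxia library was kept. That effect was 0.02 (SE 0.15), or -0.22 and 0.22 without WT hypoxia replicate 1 and 2, and the effect in FIH-KO cells was -0.14 (SE 0.15), or -0.26 and -0.02 without FIH-KO hypoxia replicate 1 and 2.

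Ehd2 encodes an ATPase that holds caveolae at the membrane. It lies on chromosome 7 (GRCm39, 15680874 to 15701629, minus strand, identifier ENSMUSG00000074364.7). It had 279 and 316 CPM in WT normoxia, 171 and 149.8 in WT hypoxia, 386 and 349.6 in FIH-KO normoxia and 196 and 232 in FIH-KO hypoxia. The FIH-KO libraries exceeded the WT libraries at each oxygen level. Averaged over oxygen the log2 fold change was 0.36 (SE 0.09, 1.28-fold, edgeR adjusted p = 0.00619). It passed in hypoxia (0.41, SE 0.13, edgeR adjusted p = 0.0291) and not in normoxia (0.31, SE 0.13, edgeR adjusted p = 0.0896). The hypoxia call was lost without WT hypoxia replicate 1, WT hypoxia replicate 2 or FIH-KO hypoxia replicate 2 (edgeR adjusted p = 0.0569, 0.199 and 0.149). In normoxia Ehd2 was called in the 4 normoxia libraries alone and without either FIH-KO hypoxia library (edgeR adjusted p from 0.0477 to 0.0485), and the value was 0.22 (edgeR adjusted p = 0.430) without WT normoxia replicate 1. Hypoxia libraries lay below normoxia libraries in both genotypes. As a description, the hypoxia effect was -0.89 (SE 0.13) in WT and -0.78 (SE 0.13) in FIH-KO cells.

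Pacsin2 encodes a membrane-bending F-BAR protein. It lies on chromosome 15 (GRCm39, 83258424 to 83348819, minus strand, identifier ENSMUSG00000016664.17). It had 221 and 211 CPM in WT normoxia, 184 and 168 in WT hypoxia, 235 and 232 in FIH-KO normoxia and 180.0 and 196 in FIH-KO hypoxia. The genotypes overlapped in hypoxia, and in normoxia both FIH-KO libraries were above both WT libraries. It did not pass averaged over oxygen (log2 fold change 0.10, SE 0.07, edgeR adjusted p = 0.288), in normoxia (0.11, SE 0.10, edgeR adjusted p = 0.460) or in hypoxia (0.09, SE 0.11, edgeR adjusted p = 0.548). The value in normoxia was 0.06 without WT normoxia replicate 2. That in hypoxia ran from 0.03 (WT hypoxia replicate 2 left out) to 0.16 (WT hypoxia replicate 1 left out), and was 0.15 and 0.03 without FIH-KO hypoxia replicate 1 and 2. Its hypoxia effect was -0.30 (SE 0.11) in WT and -0.32 (SE 0.11) in FIH-KO cells.

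Of the 6 genes other than Cav2, 3 were called higher in FIH-KO cells in normoxia (Cavin1, Cavin2 and Cavin3) and 4 in hypoxia (Cav1, Cavin1, Cavin2 and Ehd2), with none called lower. The 3 calls in normoxia became 0 without WT normoxia replicate 1, WT normoxia replicate 2 or FIH-KO normoxia replicate 1 and 1 without FIH-KO normoxia replicate 2. The 4 in hypoxia became 1 without WT hypoxia replicate 2. Over all tested genes 15.2% were called higher and 13.0% lower in normoxia (28.2% in all), and 14.1% higher and 13.9% lower in hypoxia (28.0% in all). The 2 comparisons share no library. Whether the genotype effect of a gene differed between oxygen levels was not tested for these genes, since that difference is the measure that chose them. Across all 13933 genes edgeR called 0 (0%) at an adjusted p under 0.05 for this difference, 925 at an unadjusted p under 0.05, and DESeq2 called 37.

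**Figure D2:**
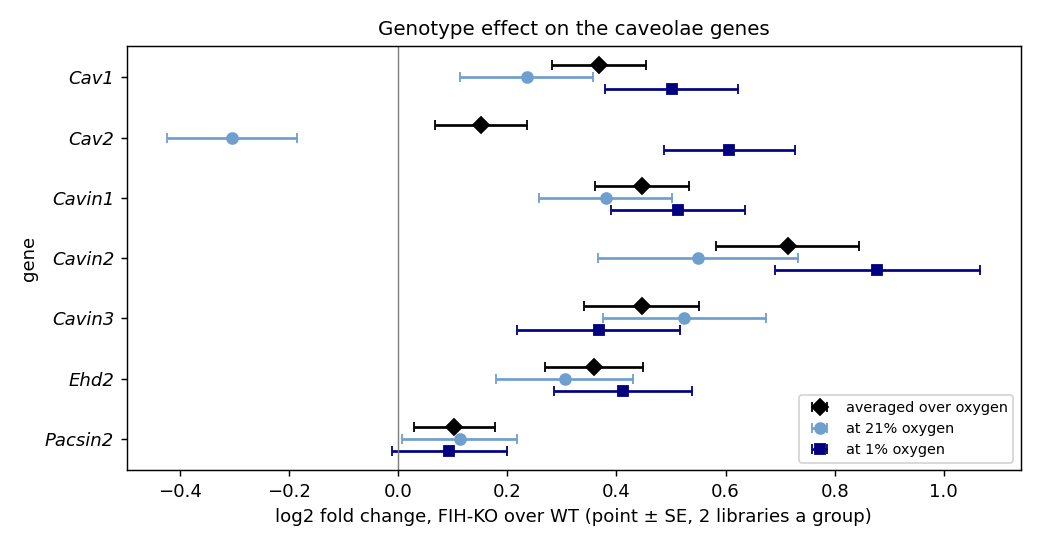
Genotype effect on each caveolae gene as the log2 fold change of FIH-KO over WT cells (horizontal axis; vertical axis, genes), averaged over oxygen and at each oxygen level, with SE bars. The 5 genes called averaged over oxygen lie between 0.36 and 0.71, and Cav2 lies at -0.30 in normoxia and 0.61 in hypoxia, values given without a test.

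In hypoxia, as a description, both libraries lay below both normoxia libraries for 5 of the 7 genes in WT cells: Cav2, Cavin1, Cavin2, Ehd2 and Pacsin2. The same 5 genes were lower without overlap in FIH-KO cells, where Cav1 was higher without overlap. Over all tested genes the share without overlap was 35.6% lower and 35.2% higher in WT cells, and 29.3% lower and 25.9% higher in FIH-KO cells. By the edgeR test 15.5% of tested genes were called lower and 16.9% higher with hypoxia in WT cells (32.4% in all), and 8.0% lower and 8.84% higher in FIH-KO cells (16.8% in all). The 2 hypoxia effects use separate libraries. Nothing is read from these counts, because the choice of genes used the same contrasts.

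In CPM per kilobase of exon, Cavin1 was the highest of the 7 in every group and Cav1 the next. Cavin1 averaged 152 ± 1.65 (SD, n = 2) CPM per kilobase in WT normoxia, 79.5 ± 6.23 in WT hypoxia, 198 ± 23.1 in FIH-KO normoxia and 113 ± 5.95 in FIH-KO hypoxia. Cav1 averaged 75.2 ± 0.0119, 74.7 ± 3.10, 88.5 ± 8.83 and 106 ± 12.8 in the same order. In both hypoxia groups the 2 genes differed by less than the larger of their SDs. The ratio of Cavin1 to Cav1 per kilobase was 2.01 and 2.04 in WT normoxia, 2.26 and 2.20 in FIH-KO normoxia, 1.09 and 1.03 in WT hypoxia and 0.951 and 1.22 in FIH-KO hypoxia. Lower in the order, Ehd2 (46.9 ± 4.05), Cavin2 (40.2 ± 0.189) and Cav2 (34.1 ± 1.90) followed in WT normoxia, then Pacsin2 (22.8 ± 0.723) and Cavin3 (15.2 ± 0.321). In WT hypoxia Cavin2 was the lowest of the 7, at 10.8 ± 0.267 CPM per kilobase. When the longest annotated transcript was used as the length in place of all exons, the order changed in every group. Cav1 then came before Cavin1 in both hypoxia groups, and Pacsin2 came next after that pair in every group but FIH-KO normoxia, where Ehd2 did.

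The neighbors of Cav1 and Cav2 were examined, since the pair lies in 1 stretch of chromosome 6. Within 500 kb of the pair the table held 20 genes including both, of which 7 passed the filter. Of these 7, Cav1 was called higher and Tes and St7 lower in FIH-KO cells averaged over oxygen. These counts were near the shares over all tested genes, 22.0% called higher and 21.2% lower. Tes, a focal adhesion gene, was lower (log2 fold change -0.31, SE 0.09, edgeR adjusted p = 0.0167), a call lost without WT normoxia replicate 1, WT normoxia replicate 2, WT hypoxia replicate 1 or FIH-KO normoxia replicate 2 (edgeR adjusted p from 0.0548 to 0.0697). St7 was also lower (-0.39, SE 0.10, edgeR adjusted p = 0.00937), while Met, Capza2 and Gm15473 did not pass. For Met the average joined values of opposite sign. In normoxia it had 160.0 and 190.5 CPM in FIH-KO against 234 and 221 in WT cells and was called lower (-0.37, SE 0.11, edgeR adjusted p = 0.0281), a call lost without WT normoxia replicate 1, WT normoxia replicate 2 or FIH-KO normoxia replicate 1 (edgeR adjusted p = 0.184, 0.0781 and 0.208). In hypoxia it had 122 and 131 CPM in FIH-KO against 109.5 and 117 in WT cells and was not called (0.16, SE 0.12, edgeR adjusted p = 0.333). Met, which encodes the receptor of hepatocyte growth factor, fell with hypoxia in WT cells (-1.0, SE 0.12, edgeR adjusted p = 9.01e-05) and in FIH-KO cells (-0.47, SE 0.11, edgeR adjusted p = 0.0163). The edgeR test of the difference between these effects of Met did not pass (0.53, SE 0.16, edgeR adjusted p = 0.510), and the FIH-KO call was lost in the 4 FIH-KO libraries alone (edgeR adjusted p = 0.0835), without FIH-KO normoxia replicate 2 (0.108) or without FIH-KO hypoxia replicate 1 (0.0649). The median genotype effect over the 681 tested genes of chromosome 6 was -0.13, averaged over oxygen.

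**Figure D3:**
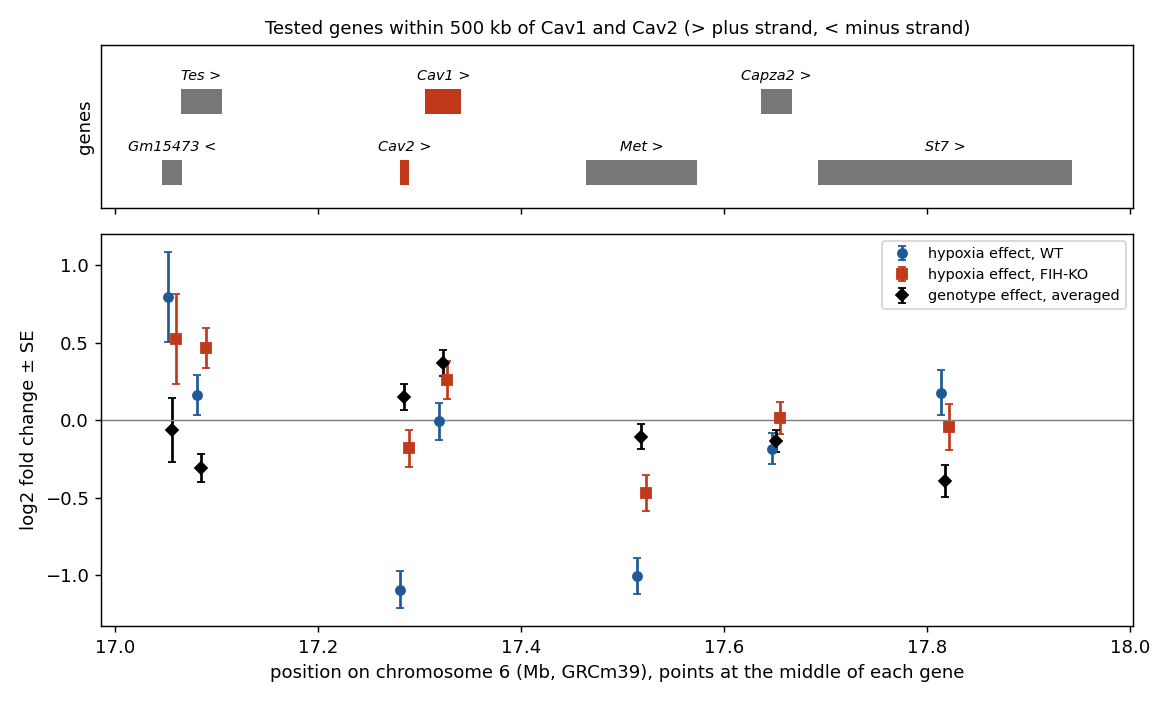
Upper part, the 7 tested genes within 500 kb of Cav1 and Cav2 on chromosome 6 (GRCm39, position in Mb), to scale; lower part, the log2 fold change of each with SE for the hypoxia effect in WT, the hypoxia effect in FIH-KO and the genotype effect averaged over oxygen. Cav2 and Met lie at -1.09 and -1.0 for hypoxia in WT cells, and Cav1, which lies between them on the chromosome, at -0.01.

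The genes whose pattern over the 8 libraries was most like that of Cav2, ranked among 10575 genes whose counts averaged 50 or more, were Uqcrh, Trappc1, Sergef, Mrpl41 and Galnt4. The root mean square difference of their centered log2 CPM from Cav2 ran from 0.0909 to 0.127. Most like Cav1 were Xylt2, Ctr9 and Stam2, from 0.0795 to 0.0858. Uqcrh encodes a subunit of mitochondrial complex III and Mrpl41 a protein of the mitochondrial ribosome. When the distance was taken over the 4 group means, 3 of the 5 genes for Cav2 and 1 of the 3 for Cav1 were chosen again.

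Averaged over oxygen, calls among the relatives of the caveolae genes were near the shares over all tested genes. Those shares were 22.0% called higher and 21.2% lower in FIH-KO cells. Of 7 other caveolin, cavin, EHD and PACSIN genes 5 passed the filter, and 1 was called higher and 1 lower in FIH-KO cells averaged over oxygen (median log2 fold change 0.18), with 2 called higher without either FIH-KO hypoxia library. Pacsin3 was higher (log2 fold change 0.69, SE 0.18, edgeR adjusted p = 0.00722) and the recycling ATPase Ehd1 lower (-0.53, SE 0.10, edgeR adjusted p = 0.000779). Ehd4 did not pass averaged over oxygen (0.18, SE 0.09, edgeR adjusted p = 0.113), was called without FIH-KO hypoxia replicate 1 (0.27, edgeR adjusted p = 0.0107) and was 0.08 without FIH-KO hypoxia replicate 2. It fell with hypoxia in WT (-1.16, SE 0.13, edgeR adjusted p = 5.55e-05) and in FIH-KO cells (-1.19, SE 0.12, edgeR adjusted p = 9.74e-05). Cavin4 had 3 to 16 counts and Pacsin1 2 to 20 counts per library. Pacsin1 was called higher in normoxia (2.16, SE 0.59, edgeR adjusted p = 0.0175), a call that DESeq2 did not make (adjusted p = 0.114) and that was lost without WT normoxia replicate 1, WT normoxia replicate 2 or FIH-KO normoxia replicate 1 (edgeR adjusted p from 0.0816 to 0.107). Ehd3, with 2 to 10 counts, and the muscle caveolin Cav3, with 0 counts in every library, were not tested. Of the 5 tested relatives, 2 were called higher and 1 lower in normoxia, against 15.2% and 13.0% of all tested genes. With hypoxia 1 was called lower in WT and 2 in FIH-KO cells, against 15.5% and 8.0%. The FIH-KO hypoxia call of Pacsin1 (edgeR adjusted p = 0.0488) was lost in the 4 FIH-KO libraries alone (edgeR adjusted p = 0.116).

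Flotillins form membrane domains of their own, apart from caveolae. Flot1 was higher in FIH-KO cells (log2 fold change 0.85, SE 0.10, edgeR adjusted p = 4.63e-05), and Flot2 did not pass (0.03, SE 0.08, edgeR adjusted p = 0.780). Both fell with hypoxia. In WT cells the values were -0.62 (SE 0.15, edgeR adjusted p = 0.00728) for Flot1 and -1.05 (SE 0.12, edgeR adjusted p = 8.02e-05) for Flot2. In FIH-KO cells they were -0.50 (SE 0.14, edgeR adjusted p = 0.0319) and -0.88 (SE 0.12, edgeR adjusted p = 0.000519). The Flot1 call in WT cells was lost without WT normoxia replicate 2 or WT hypoxia replicate 1 (edgeR adjusted p = 0.0718 and 0.0859). In FIH-KO cells it was lost in the 4 FIH-KO libraries alone (edgeR adjusted p = 0.0825), without WT normoxia replicate 2 and without FIH-KO normoxia replicate 1, FIH-KO hypoxia replicate 1 or FIH-KO hypoxia replicate 2 (edgeR adjusted p from 0.0583 to 0.244), with a value of -0.31 without FIH-KO normoxia replicate 1.

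Genes that act on caveolae from outside the coat were counted by list, beside all tested genes, of which 22.0% were called higher and 21.2% lower in FIH-KO cells averaged over oxygen with a median log2 fold change of -0.02. Of 11 tested genes of caveola fission, anchoring and phosphorylation, 3 were higher, near the share over all genes, and 1 lower, with a median of 0.11. The kinase Abl1 (0.55, SE 0.08, edgeR adjusted p = 0.00023), the formin Diaph1 (0.46, SE 0.07, edgeR adjusted p = 0.000348) and the actin cross-linker Flna (0.45, SE 0.10, edgeR adjusted p = 0.00421) were higher. The kinase Abl2 was lower (-0.37, SE 0.07, edgeR adjusted p = 0.00136). Of 13 tested genes of cholesterol uptake, sensing and export, 6 were higher, above the share over all genes, and 1 lower, with a median of 0.18, and the lower call was lost without WT normoxia replicate 2, WT hypoxia replicate 1, FIH-KO normoxia replicate 2 or FIH-KO hypoxia replicate 2. Insig2, which retains the sterol sensor in the endoplasmic reticulum, was 1.99-fold higher (log2 fold change 0.99, SE 0.11, edgeR adjusted p = 2.71e-05), and the lysosomal cholesterol exporters Npc2 (0.76, SE 0.09, edgeR adjusted p = 5.69e-05) and Npc1 (0.74, SE 0.11, edgeR adjusted p = 0.000171) were also higher. Of 24 tested genes of clathrin endocytosis, another route of uptake, 3 were higher and 2 lower, both below the shares over all genes, with a median of 0.05, and the 2 became 1 without WT normoxia replicate 1 and 0 without WT normoxia replicate 2.

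Of 16 tested receptors and enzymes known to reside in caveolae, 4 were higher and 5 lower in FIH-KO cells averaged over oxygen, with a median log2 fold change of -0.14. The share called higher was near the 22.0% over all tested genes, and that called lower was above the 21.2%. The epidermal growth factor receptor Egfr was 3.21-fold higher (log2 fold change 1.68, SE 0.10, edgeR adjusted p = 3.01e-07). The ATP-gated channel P2rx7 (2.11, SE 0.17, edgeR adjusted p = 2.65e-06) and the endothelin receptor Ednra (1.69, SE 0.29, edgeR adjusted p = 0.000528) were higher, and the calcium channel Trpc1 was lower (-1.13, SE 0.17, edgeR adjusted p = 0.000243).

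Annotated genes overlap some of the caveolae genes on the opposite strand, and Gm5417, a pseudogene, overlaps Pacsin2 on the same strand. The libraries keep strand, but whether the counting used it is not given in the sources used here. The overlapping genes in the table had few counts: Gm15581, opposite Cav1 and Cav2, had 0 in every library, 9330175M20Rik, opposite Cavin2, at most 3, Gm45667, opposite Cavin3, at most 5, and Gm5417 at most 5.

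The promoters of the 7 genes, and of all tested genes, were searched for the HIF core motifs ACGTG and GCGTG on both strands, from 250 bases before to 50 bases after the annotated start. A core was found for 4 of the 7 genes (Cav1, Cavin1, Ehd2 and Pacsin2), against 58.4% of 13880 promoters of tested genes. The TEAD motif GGAATG, also read on both strands, was found for Cavin1 and Cavin3, against 12.9% of promoters. A match describes the letters and is not a binding site, and no match says only that these letters are not in this window. The 250 bases before the start are shown for the caveolin called higher and for 2 cavins called higher, 1 with and 1 without a core, from GRCm39 and on the strand of each gene, with HIF cores in capitals. Cav1 (chr6:17305890-17306139, plus strand) holds 2 cores, Cavin1 (chr11:100861714-100861963, minus strand) 1 and Cavin2 (chr1:51328016-51328265, plus strand) 0.
Cav1: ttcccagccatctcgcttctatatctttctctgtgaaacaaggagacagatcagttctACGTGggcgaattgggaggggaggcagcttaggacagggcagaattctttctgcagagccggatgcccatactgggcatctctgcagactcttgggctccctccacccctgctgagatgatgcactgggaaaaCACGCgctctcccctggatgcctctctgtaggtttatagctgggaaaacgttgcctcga
Cavin1: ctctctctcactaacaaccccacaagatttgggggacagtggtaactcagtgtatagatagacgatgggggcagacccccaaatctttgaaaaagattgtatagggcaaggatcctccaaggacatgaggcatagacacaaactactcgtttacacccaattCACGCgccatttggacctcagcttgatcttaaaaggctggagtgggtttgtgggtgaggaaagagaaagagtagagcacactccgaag
Cavin2: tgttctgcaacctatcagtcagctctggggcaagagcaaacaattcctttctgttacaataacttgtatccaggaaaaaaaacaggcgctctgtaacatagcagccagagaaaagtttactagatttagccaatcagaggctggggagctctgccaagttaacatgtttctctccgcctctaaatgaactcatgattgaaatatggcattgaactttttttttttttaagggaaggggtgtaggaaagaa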

How the data were processed

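The authors made stranded mRNA libraries (TruSeq) and used STAR with GRCm39 and HTSeq. The deposited values used here are raw counts, 1 column per library. The submitters' processing notes name GRCm38 beside GRCm39, and STAR and DESeq2. The annotation release and the strand setting of the counting are not given in the sources used here. Groups came from the sample labels. Testing used edgeR 4.0.16 in R 4.3.3 after filterByExpr and TMM, by the quasi-likelihood F-test in a single fit of the 4 groups, adjusted by Benjamini-Hochberg over 13933 genes with a threshold of 0.05. The script was tested on simulated counts. DESeq2 1.42.0, other normalizations and filters, a replicate block and leaving out each library were alternatives. Positions, exon lengths and promoters came from GENCODE and the GRCm39 genome (97.97% of identifiers found), with Python 3.11.15 and pandas 2.3.3. Named genes were the caveolae genes, Hif1an, tested genes within 500 kb of Cav1 and Cav2, the 5 and 3 genes most like Cav2 and Cav1, and of each list up to 4 called genes with the largest change, with all relatives and flotillins. The members and lists were chosen with earlier results of these data known.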

Additional observations from a re-analysis of the deposited data

Results flagged for a closer look

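Several of the genes examined here lay on opposite sides of WT in the 2 oxygen conditions. For these, every FIH-KO library was below every WT library at 1 oxygen level and above at the other. The share of all tested genes with such positions was not counted, so nothing is read from how many are named. For Cav2 the difference of the hypoxia effect between genotypes was 0.91 (log2), and it was not tested because it chose the gene. The other genes are named here for the same opposite positions, so their differences are likewise descriptions. In the test over all genes none of them passed with edgeR, with adjusted p from 0.267 for Ldha to 0.813 for Cltb. DESeq2 called Pdk1, Pgk1 and Ldha (adjusted p = 0.00837, 0.0104 and 0.00116), and edgeR without a filter beyond 1 read called these 3, Fyn and Car9 (adjusted p from 1.04e-07 to 0.0266). The kinase Fyn had a difference of -0.81, and the clathrin light chain Cltb one of -0.44. The HIF targets Pdk1, Pgk1 and Ldha had differences of 1.18, 0.79 and 0.88. Met, a neighbor of Cav2, had a difference of 0.53, and Trappc1, named for its likeness to Cav2, one of 0.73. Car9, with at most 5 counts in any FIH-KO library, had -4.36. Of the endocytosis genes, Eps15l1 (-0.33) and Itsn1 (-0.42) also lay on opposite sides of normoxia in the 2 genotypes in hypoxia.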

How the results depend on the processing

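Averaged over oxygen, the 5 caveolae genes called higher were 5 under every alternative run, and the number of genes called stayed within 1.5 times 6013. The range without single libraries was 4540 to 6002.

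Within one oxygen level fewer libraries bear on a call. At 21% oxygen the 3 caveolae genes called became 0 to 4 without single libraries, and the 3933 genes called became 1725 to 4587. At 1% oxygen the 4 called became 1 to 4, and the 3896 genes called 2194 to 3928. For hypoxia the 4509 genes called in WT cells became 2138 to 5148 and the 2345 in FIH-KO cells 1118 to 2580, or 1249 in the 4 FIH-KO libraries alone. For the difference of the hypoxia effect, edgeR's 0 genes became 37 with DESeq2, 143 without a filter beyond 1 read, and 0 to 17 without single libraries. Where a library was left out, the lone library of its group was assumed to vary like the others; the cause of other changes was not tested. Flot2, which did not pass averaged over oxygen, ranged from -0.0120 to 0.0797 without single libraries, below 0 also without WT normoxia replicate 2 (-0.00207) and FIH-KO normoxia replicate 1 (-0.00858).

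The labels number the libraries 1 and 2 in each group. Correlations of the deviations of same-numbered libraries between groups ran from -0.0104 to 0.193, so the numbers were not taken as pairing. With the replicate block 5 genes were called for the difference in place of 0, and the other counts stayed within 1.5 times: 6088, 4080, 4039, 4593 and 2479 in the order average, 21%, 1%, WT hypoxia and FIH-KO hypoxia.

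Of 278 alternative values for the caveolae genes with a test, 255 kept their direction and side of the threshold, 18 lost a call and 5 gained one. Of 338 values given without a test, 22 moved by more than the spread between replicates. Of 1425 values of other named genes 97 lost a call, 9 gained one and 3 changed sign, those of Flot2; of 616 counts over lists 552 stayed within 1.5 times. In the 250 bases before the start alone, 50.4% of promoters held a HIF core and 11.4% the TEAD motif, as did 4 and 1 of the caveolae genes, the latter in place of 2. Having 2 libraries a group limits every test.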
